A study of Mus musculus with 38 samples.

Results

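The Rhox genes encode homeobox transcription factors and lie side by side in 1 cluster on the X chromosome. They are known for expression in reproductive tissues, where each member keeps to its own cell types and stages. *Rhox5*, the founding member, is expressed in Sertoli cells under androgen control, and *Rhox8* is another Sertoli cell member. *Rhox13* is a germ cell member whose protein appears as spermatogonia differentiate, a step driven by retinoic acid. *Rhox6* and *Rhox9* are known from placenta and germ cells. Levels of these 5 genes were followed in testes of young males in which the X chromosome came from B6, from the wild-derived strain MSM, or from both. A probe set was taken as a member when the annotation of the array joined it to 1 of the 5 genes. This gave 4 probe sets, 1 each for *Rhox5*, *Rhox6*, *Rhox9* and *Rhox13*, out of 45101 on the array, of which 34958 were joined to 1 gene. No probe set was joined to *Rhox8*, which is therefore not analysed here. Among the study's polymorphic probe sets, 2 more carry Rhox names: one for *Rhox2a*, and one for the near-identical copies of *Rhox4* (*Rhox4a* to *Rhox4g*). *Rhox2a* also has near-identical copies, so both signals may come from several genes of the cluster.

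Each of the 38 arrays held testis RNA of 1 male. B6, MSM, B6-ChrXMSM and B6-ChrXTMSM were represented by 3 males each at 5 and at 7 days postpartum (dpp), and 3 further males of 5 dpp were of XS39-tel, a congenic strain. B6-ChrXMSM carries the X chromosome of MSM on the B6 background, B6-ChrXTMSM carries only its distal part, and XS39-tel a smaller part towards the telomere. F1 males, from (B6-ChrXTMSM x B6-Chr1MSM)F1 crosses, have the X chromosome of the B6-ChrXTMSM mother and are heterozygous for MSM and B6 on chromosome 1. There were 3 F1 males at 5 dpp and 8 at 7 dpp. The Rhox cluster lies in the proximal X, so its alleles are those of MSM in MSM and B6-ChrXMSM males and those of B6 in all other groups. The RNA came from whole tissue, so fewer cells of a type and less RNA per cell cannot be told apart.

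The values are log2 signals made by the RMA method, and array medians lay between 2.63 and 2.71. In B6 testes at 7 dpp the germ cell genes *Dazl* and *Ddx4* had mean log2 signals of 9.35 and 7.77, and the Sertoli cell genes *Sox9* and *Amh* of 6.61 and 3.95. All 4 were above the expression filter, a log2 signal of 3.32 (a signal of 10) that at least 1 compared group had to exceed on average. Pairs of groups were compared with the moderated test of limma. A call needed an adjusted p under 0.05, by the Benjamini-Hochberg method over all probe sets kept, and a fold change of at least 1.5.

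Promoter sequence of the Rhox genes whose signals passed the filter in any group is shown here because their levels are followed across X chromosomes of both origins. RefSeq sequence of the B6 reference was at hand for *Rhox13*, *Rhox5* and *Rhox2a*. The 250 bases before each transcription start are given 5' to 3' on the plus strand of GRCm38.p6, at chrX:38120590-38120839 for *Rhox13*, chrX:37754358-37754607 for *Rhox5* and chrX:37244742-37244991 for *Rhox2a*. Capitals mark matches to the androgen receptor core motif AGAACA on either strand.
Rhox13: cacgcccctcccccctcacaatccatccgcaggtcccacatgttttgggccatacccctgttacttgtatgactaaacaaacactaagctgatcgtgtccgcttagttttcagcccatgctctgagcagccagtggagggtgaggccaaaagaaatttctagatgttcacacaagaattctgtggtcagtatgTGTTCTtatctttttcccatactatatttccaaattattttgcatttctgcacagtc
Rhox5: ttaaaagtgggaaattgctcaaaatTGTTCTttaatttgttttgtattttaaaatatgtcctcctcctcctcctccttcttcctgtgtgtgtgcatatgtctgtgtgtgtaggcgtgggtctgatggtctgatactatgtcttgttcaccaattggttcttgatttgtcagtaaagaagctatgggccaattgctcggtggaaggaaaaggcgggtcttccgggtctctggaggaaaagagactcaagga
Rhox2a: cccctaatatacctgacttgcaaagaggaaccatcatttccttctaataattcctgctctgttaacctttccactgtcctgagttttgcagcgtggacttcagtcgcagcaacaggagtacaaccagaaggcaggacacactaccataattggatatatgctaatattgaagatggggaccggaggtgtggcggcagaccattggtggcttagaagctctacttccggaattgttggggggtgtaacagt
AGAACA occurred 1 time before *Rhox13*, 57 bases ahead of the start, and 1 time before *Rhox5*, 225 bases ahead of it. It was not found before *Rhox2a*, and 16.1% of 32851 RefSeq promoters of this length hold it. The retinoic acid receptor core motif AGGTCA, the STRA8 motif CNCCTCAG and the E-box CACGTG, searched on both strands, were found in none of the 3 windows. They occurred in 14.0%, 6.42% and 6.02% of all promoters. No window holds more than 1 match, so no matches could overlap. CG dinucleotides numbered 4 before *Rhox13*, 4 before *Rhox5* and 5 before *Rhox2a*, and 44.4% of all promoters held 4 or fewer.

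*Rhox13* rose between the ages in both parental strains and in F1 males, while its rise in B6-ChrXMSM and B6-ChrXTMSM was smaller than in B6 by the strain by age term. In B6 testes its log2 signals were 3.94, 3.93 and 4.11 at 5 dpp and 6.07, 6.11 and 6.31 at 7 dpp. The ages were far apart, with a log2 difference of 2.17 (standard error 0.08, adjusted p = 1.56e-05 from limma), or 4.50-fold. In MSM testes the signals were 3.85, 3.60 and 4.13 at 5 dpp and 5.70, 5.92 and 5.95 at 7 dpp, a rise of 2.00 (standard error 0.13, adjusted p = 2.90e-05 from limma). Of all probe sets tested between the ages, 8.37% were called in B6 and 14.7% in MSM.

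B6-ChrXTMSM males had *Rhox13* signals of 3.82, 3.65 and 3.26 at 5 dpp and 3.41, 3.96 and 3.64 at 7 dpp. These ranges overlapped, and the log2 difference was 0.10 with a 95% interval from -0.31 to 0.50 (adjusted p = 0.759 from limma, 0.839% of probe sets called). B6-ChrXMSM males had signals of 3.17, 3.16 and 2.78 at 5 dpp, all below the filter, and 4.10, 3.56 and 3.55 at 7 dpp. Here the rise was 0.70 (standard error 0.17, adjusted p = 0.0393 from limma, 2.49% of probe sets called). That call was lost without any 1 of the 6 males, with adjusted p between 0.0572 and 0.0956, and with no filter (adjusted p = 0.0940). The probe set was kept in this comparison only through the males of 7 dpp.

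**Figure D1:**
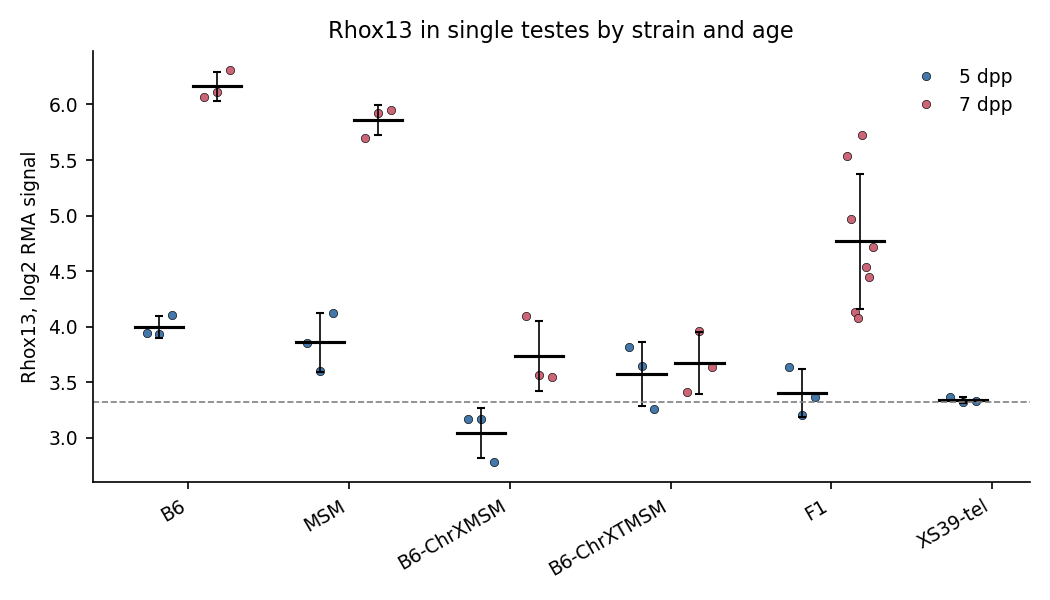
Log2 RMA signal of Rhox13 in each male (points) by strain (x axis) at 5 dpp (blue) and 7 dpp (red). Bars are group means with SD, and the dashed line is the expression filter at 3.32. At 7 dpp the B6 and MSM males lie at or above 5.70, the B6-ChrXMSM and B6-ChrXTMSM males at or below 4.10, and the 8 F1 males between 4.08 and 5.73.

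At 7 dpp the level of *Rhox13* was therefore set side by side for males with and without the substituted X chromosome. It was 6.16 ± 0.13 in B6 (SD, n = 3) and 3.67 ± 0.28 in B6-ChrXTMSM testes (SD, n = 3). The log2 difference was -2.49 (standard error 0.13, adjusted p = 4.67e-05 from limma), 5.63-fold lower, in a comparison with 5.72% of probe sets called. B6-ChrXMSM testes, at 3.73 ± 0.31 (SD, n = 3), differed from B6 by -2.43 (standard error 0.14, adjusted p = 2.10e-05 from limma), 5.38-fold, with 6.08% of probe sets called. No male of either strain overlapped with a B6 male.

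*Rhox13* carries B6 alleles in B6-ChrXTMSM and MSM alleles in B6-ChrXMSM males, and at 7 dpp these groups overlapped. Their log2 difference was -0.06 with a 95% interval from -0.47 to 0.34 (adjusted p = 0.923 from limma, 0.313% of probe sets called). B6-ChrXMSM and MSM males share the MSM alleles. Between them *Rhox13* was lower in B6-ChrXMSM at 7 dpp, with a log2 difference of -2.12 (standard error 0.15, adjusted p = 1.03e-05 from limma). That comparison called 23.7% of probe sets. MSM differed from B6 by -0.30 (95% interval -0.51 to -0.09, adjusted p = 0.0205 from limma), which is less than 1.5-fold, while 17.3% of probe sets were called. The part of the alleles in these levels was not tested.

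Differences between strains at 5 dpp were smaller. B6-ChrXMSM males lay below all B6 males, with a log2 difference of -0.95 (standard error 0.11, adjusted p = 0.00767 from limma, 1.68% of probe sets called). They also lay below all MSM males, where 31.2% of probe sets were called and the log2 difference was -0.82 (limma, standard error 0.15, adjusted p = 0.00163). The B6-ChrXMSM mean was below the filter in both comparisons. XS39-tel males had signals of 3.37, 3.32 and 3.33, close to the filter, and differed from B6 by -0.65 (standard error 0.08, adjusted p = 0.0282 from limma, 0.646% called). The call in XS39-tel was kept when its replicate 3 was left out and was lost without any other of the 6 males, with adjusted p up to 0.177.

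B6-ChrXTMSM at 5 dpp differed from B6 by -0.42 (95% interval -0.74 to -0.09, adjusted p = 0.172 from limma, 0.306% called). F1 males had signals of 3.64, 3.20 and 3.36 and differed from B6 by -0.59 (95% interval -0.87 to -0.31, adjusted p = 0.0875 from limma, 0.538% called). Neither passed the test, although no male of the 2 groups reached the lowest B6 male. Without F1 replicate 1 the F1 difference was called (adjusted p = 0.0307). MSM and B6 overlapped at this age, with a log2 difference of -0.13 (95% interval -0.43 to 0.16, adjusted p = 0.382 from limma, 28.3% called). Nor was B6-ChrXTMSM called against B6-ChrXMSM, with a difference of 0.54 (95% interval 0.16 to 0.92, adjusted p = 0.133 from limma, 0.729% called).

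The strain by age term tested whether the strain difference itself differed between 5 and 7 dpp. For *Rhox13* it was -2.08 (standard error 0.21, adjusted p = 0.000446 from limma) in B6-ChrXTMSM, where 5.19% of probe sets were called. In B6-ChrXMSM it was -1.47 (standard error 0.21, adjusted p = 0.00619 from limma), with 1.40% called. That call was lost in 1 fit over all 11 groups (adjusted p = 0.119 from limma), and the B6-ChrXMSM males of 5 dpp were all below the filter. In MSM the term was -0.17 (95% interval -0.54 to 0.20, adjusted p = 0.463 from limma), with 12.1% called. The F1 term was -0.81 (95% interval -1.72 to 0.11, adjusted p = 0.740 from limma), with 0.0116% called.

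F1 males at 7 dpp varied more than the males of other groups. Their lowest, median and highest *Rhox13* signals were 4.08, 4.63 and 5.73, and the mean was 4.77 ± 0.61 (SD, n = 8), beside SDs of at most 0.31 in the groups of 3. All 8 F1 males lay above all B6-ChrXTMSM males of this age and below all B6 males. Against B6 the difference was -1.40 (standard error 0.31, adjusted p = 0.0301 from limma), 2.63-fold lower, with 1.73% of probe sets called. That call was lost without any 1 of the 3 B6 males or without F1 replicate 6, 7 or 8, with adjusted p up to 0.153. Against B6-ChrXTMSM the difference was 1.10 (95% interval 0.41 to 1.78, adjusted p = 0.0914 from limma), with 0.317% called. It was called without F1 replicate 4 (adjusted p = 0.0419) and in 1 fit over all 11 groups (adjusted p = 0.0033).
At 5 dpp the F1 and B6-ChrXTMSM males overlapped, with a difference of -0.17 (95% interval -0.57 to 0.22, adjusted p = 0.760 from limma), and 0.0479% of probe sets were called. From 5 to 7 dpp *Rhox13* rose by 1.37 in F1 testes (standard error 0.31, adjusted p = 0.0125 from limma, 5.58% called). Without F1 replicate 2 or 3 of 5 dpp this rise was not called, with adjusted p of 0.0714 and 0.0570.

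Over all 11 groups, mean *Rhox13* ran from 3.04 in B6-ChrXMSM at 5 dpp to 6.16 in B6 at 7 dpp. B6 at 7 dpp stood apart from MSM at 7 dpp, the next group down, and B6-ChrXMSM at 5 dpp stood apart from XS39-tel, the next group up. All other neighbours in this order overlapped in their single males. The mean was above the filter in 10 of the 11 groups.

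*Rhox5* stayed dim at both ages. Its mean was above the filter in 1 of the 11 groups, B6-ChrXMSM at 7 dpp, where the 3 males had log2 signals of 3.75, 3.16 and 3.81. It was therefore kept only in comparisons with that group, and only because it was high there, so its fitted differences are given as descriptions. B6-ChrXTMSM males of 7 dpp had 2.63, 2.62 and 2.41, all below the filter, and did not overlap with the B6-ChrXMSM males. The log2 difference of B6-ChrXTMSM from B6-ChrXMSM was -1.02 (standard error 0.16). With the filter the adjusted p of limma was 0.0412. It was 0.134 with no filter, 0.0687 in 1 fit over all groups, and up to 0.168 when 1 male was left out, where the threshold was passed only without B6-ChrXMSM replicate 2. No call is read from these values, since the filter kept the probe set only through its high group.

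In B6 at 7 dpp *Rhox5* had signals of 3.43, 2.73 and 3.48, which overlapped with those of B6-ChrXMSM, and the difference of B6-ChrXMSM from B6 was 0.36 (95% interval -0.15 to 0.88). MSM males, all below the filter at 3.02, 3.23 and 3.18, also overlapped with B6-ChrXMSM, and the difference was 0.43 (95% interval 0.06 to 0.80), or 0.63 without B6-ChrXMSM replicate 2. Between the ages *Rhox5* differed by 0.49 in B6-ChrXMSM (95% interval 0.06 to 0.92), or by 0.70 without the same male of 7 dpp. Its strain by age term was -0.20 (95% interval -0.85 to 0.46).

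At 5 dpp *Rhox5* was below the filter in every group mean and was not tested. MSM males had 3.10, 3.04 and 3.10, and B6-ChrXMSM males 2.84, 3.33 and 3.09. B6 males had 2.39, 2.62 and 2.57, and B6-ChrXTMSM males 2.50, 2.71 and 2.49. XS39-tel males lay lowest at 1.97, 1.66 and 2.61, and F1 males had 2.92, 2.68 and 2.57. Both groups with MSM alleles of the cluster had means over 3.0, and the 4 groups with B6 alleles had means between 2.08 and 2.72, though single males overlapped. At 7 dpp the means did not split in this way, with 3.21 in B6 and 3.15 in MSM. All these means are below the filter, and a part of the alleles was not tested. In the order of all 11 means each neighbouring pair overlapped.

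*Rhox6* and *Rhox9*, both polymorphic between the strains, were below the filter on all 38 arrays. Their log2 signals ran from 0.32 to 1.02 for *Rhox6* and from 0.77 to 1.79 for *Rhox9*, and neither was tested between groups. The *Rhox4a* to *Rhox4g* probe set, at 0.78 to 2.20, was below the filter on all arrays too. Its highest group mean, 2.08, was that of B6 at 7 dpp, and its lowest, 0.91, that of B6-ChrXMSM at 7 dpp. This probe set is polymorphic too, so a difference between groups with B6 and MSM alleles may lie in the probes.

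**Figure D2:**
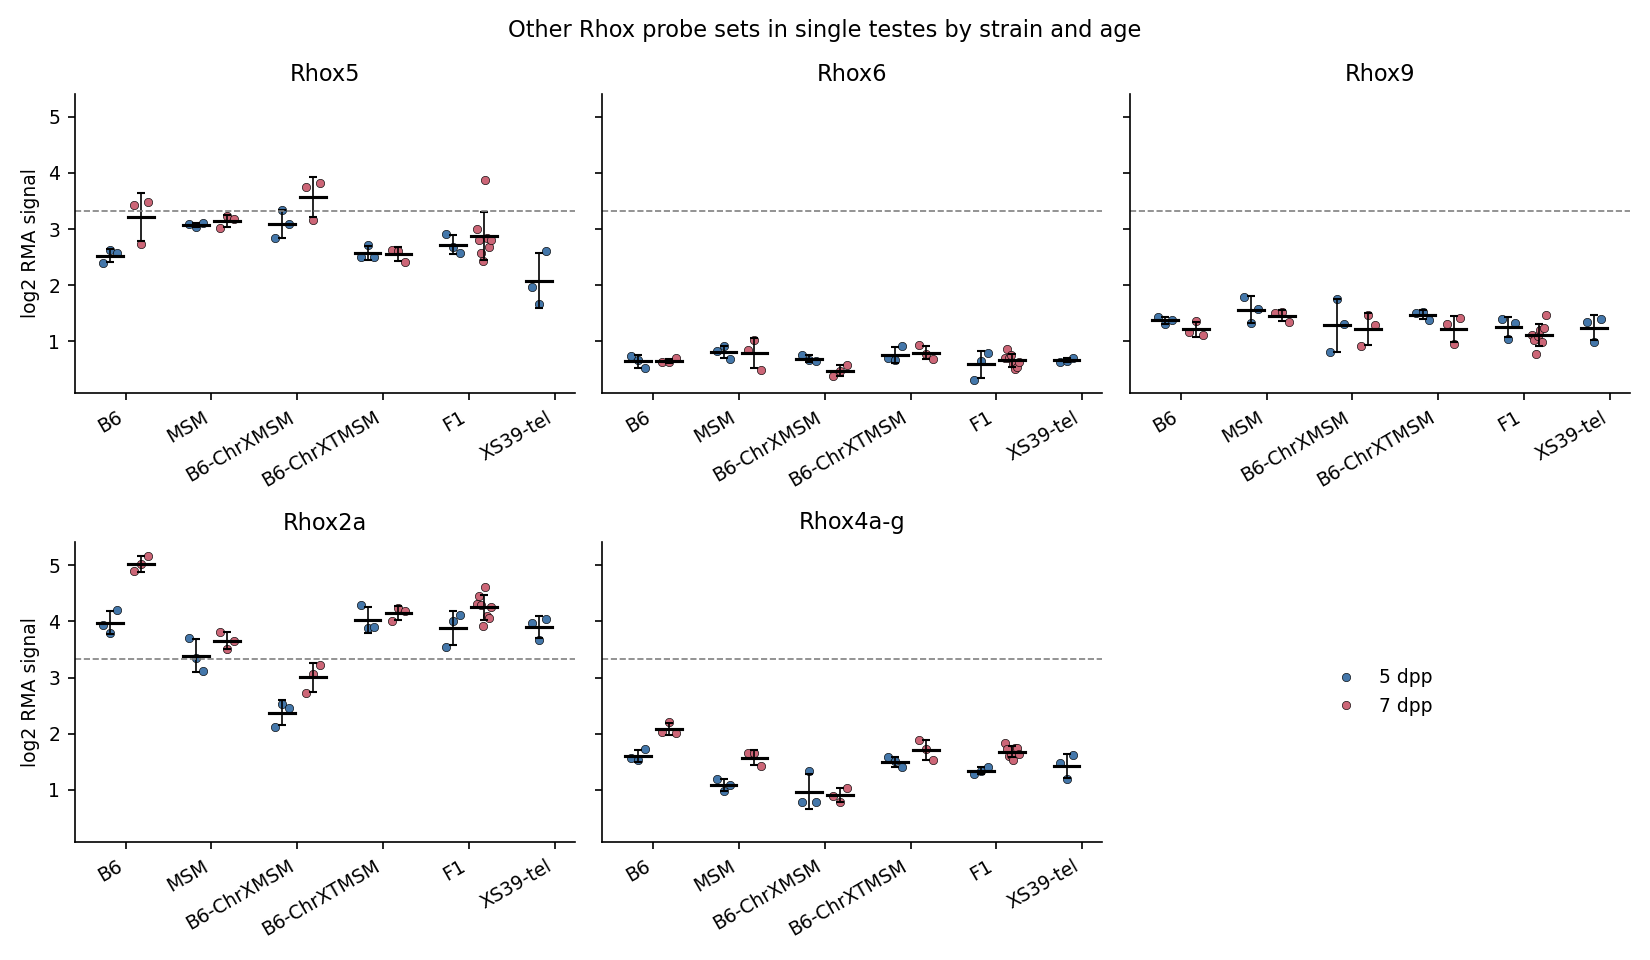
Log2 RMA signals of the other Rhox probe sets in each male (points) by strain at 5 dpp (blue) and 7 dpp (red), with group means and SD as bars and the expression filter as a dashed line at 3.32. Rhox6, Rhox9 and Rhox4a-g lie below the line in all males, Rhox5 lies near it, and Rhox2a is highest in B6 at 7 dpp. All but the Rhox5 probe set are polymorphic, so their differences between groups with B6 and MSM alleles may lie in the probes.

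The *Rhox2a* probe set is polymorphic, so it was tested only between groups with the same alleles of the cluster. Among groups with B6 alleles, B6 males had 3.94, 3.79 and 4.20 at 5 dpp and 4.89, 5.02 and 5.17 at 7 dpp, a rise of 1.05 (standard error 0.11, adjusted p = 0.000343 from limma). B6-ChrXTMSM males had 4.02, 4.24 and 4.19 at 7 dpp, all below B6, with a log2 difference of -0.88 (standard error 0.09, adjusted p = 0.000409 from limma). F1 males of this age had a lowest, median and highest signal of 3.92, 4.28 and 4.61 and differed from B6 by -0.78 (standard error 0.13, adjusted p = 0.00818 from limma). This last call was lost without B6 replicate 2 (adjusted p = 0.0552) or 3 (adjusted p = 0.0808).

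*Rhox2a* did not pass the test between the ages in the parental strain MSM, where the difference was 0.26 (95% interval -0.06 to 0.59, adjusted p = 0.154 from limma). Nor did it pass in B6-ChrXTMSM, where the difference was 0.12 (95% interval -0.15 to 0.40, adjusted p = 0.533 from limma), or in F1, where it was 0.37 (95% interval 0.05 to 0.68, adjusted p = 0.0956 from limma). Its strain by age term was -0.93 in B6-ChrXTMSM (standard error 0.18, adjusted p = 0.00577 from limma) and -0.68 in F1 (95% interval -1.15 to -0.22, adjusted p = 0.740 from limma). At 5 dpp no group with B6 alleles was called against B6, and the differences were 0.05 in B6-ChrXTMSM, -0.08 in XS39-tel and -0.09 in F1, with intervals within -0.50 and 0.38.

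With MSM alleles, *Rhox2a* was below the filter in all B6-ChrXMSM males at both ages and was kept only through MSM. The size of the difference between them is therefore uncertain, and the fitted values are given as descriptions. The MSM male of 5 dpp at 3.12 was below the filter too. At 5 dpp the signals were 2.12, 2.54 and 2.46 in B6-ChrXMSM and 3.70, 3.35 and 3.12 in MSM, which is -1.02 on the log2 scale (limma, standard error 0.16, adjusted p = 0.000619). The difference at 7 dpp was -0.65 (standard error 0.13, adjusted p = 0.00296 from limma), and without MSM replicate 1 or B6-ChrXMSM replicate 1 it fell under 1.5-fold, at -0.58 and -0.51.

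Genes of spermatogonial differentiation were set beside *Rhox13*. Of 10 genes of differentiating spermatogonia, 9 were tested in B6-ChrXTMSM against B6 at 7 dpp. *Stra8*, a gene of meiotic initiation, and *Kit*, a receptor of differentiating spermatogonia, were among the 7 that were lower, with log2 differences of -2.25 and -1.15, and the list median was -1.15. *Ccnd2*, a cyclin, was higher by 0.65. The count was the same in B6-ChrXMSM, with a median of -1.36, and 0 of 9 were called in F1, with a median of -0.48. Of 10 genes of all germ cells, 7 of the 8 tested were lower in each of the 2 strains at 7 dpp, with medians of -1.38 in B6-ChrXMSM and -1.29 in B6-ChrXTMSM, and in F1 1 of the 8 was higher, with a median of -0.25. Medians over all probe sets were 0.01 in B6-ChrXMSM and 0.02 in B6-ChrXTMSM. Of all probe sets 6.08% were called in B6-ChrXMSM, 5.72% in B6-ChrXTMSM and 1.73% in F1.

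The difference of *Rhox13* from B6 at 7 dpp was larger in size than that of every tested gene of the spermatogonial and germ cell lists in both strains, though *Dmrtb1*, a regulator of spermatogonial development, came close in B6-ChrXMSM at -2.41. In the retinoic acid list *Crabp1*, a retinoic acid binding protein, fell further, by 3.18 in B6-ChrXMSM and by 2.73 in B6-ChrXTMSM. That list holds 22 genes of retinoic acid signalling and of spermatogonial differentiation. Of the 14 tested, 7 were lower in each strain, with none higher and a median of -0.56 in both. *Sohlh1*, a transcription factor of early differentiating spermatogonia, was at -1.66 in B6-ChrXMSM and -1.49 in B6-ChrXTMSM. In F1 none of the 14 was called, with a median of -0.34. *Kit*, *Sohlh1*, *Sohlh2*, *Stra8* and *Rarg* are in both the retinoic acid and the differentiating list. *Dazl* and *Nanos3* of the retinoic acid list are also in the germ cell list, and *Nanos2* in that of undifferentiated spermatogonia. The lists are therefore not separate sets of genes. From 5 to 7 dpp in B6, 7 of the 9 tested genes of differentiating spermatogonia rose and *Ccnd2* fell, with a median of 1.09. Of the retinoic acid list 7 of 14 rose, beside 8.37% of all probe sets called.

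**Figure D3:**
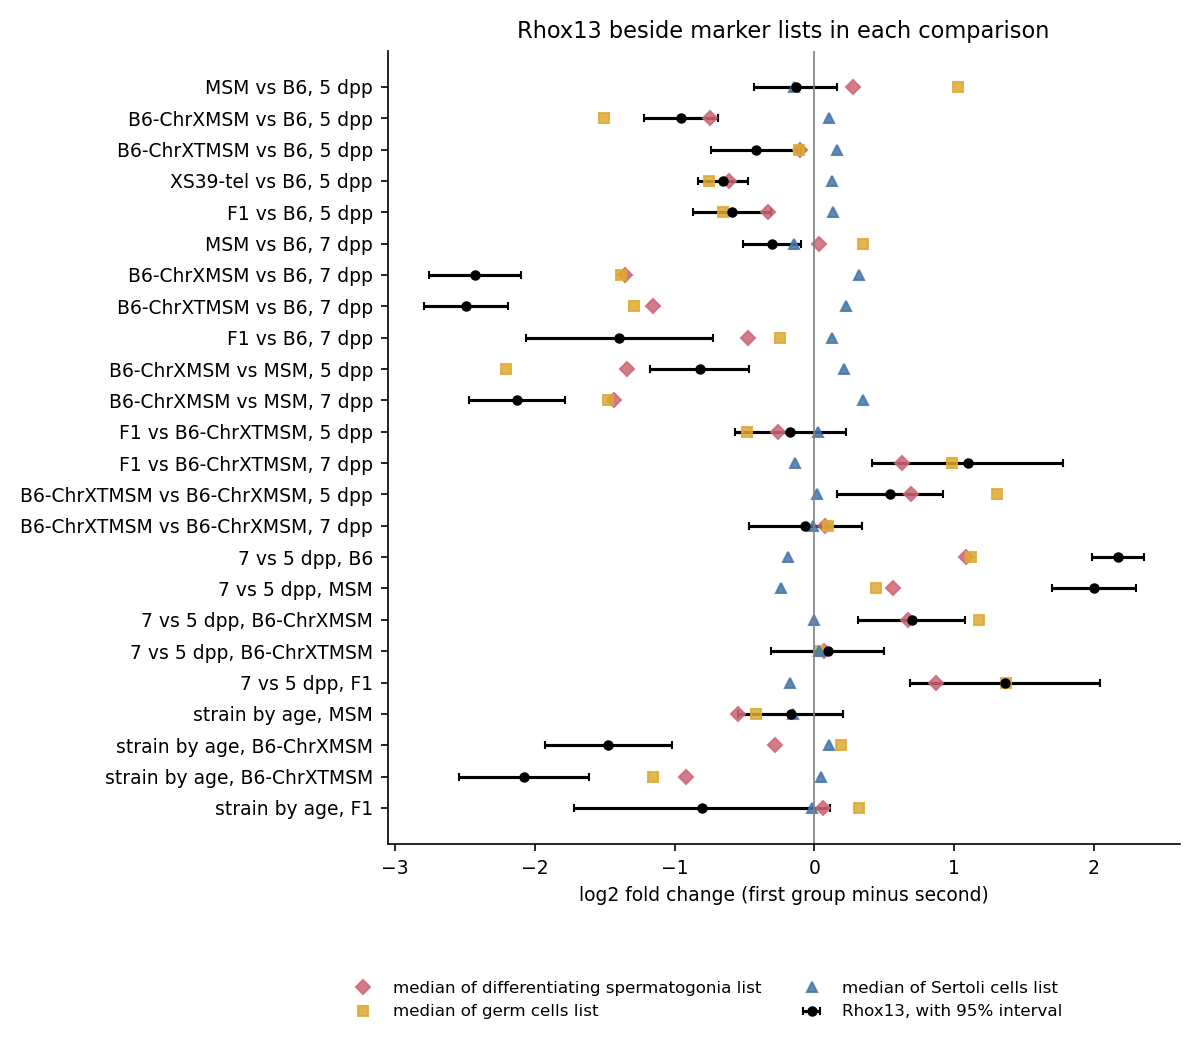
Log2 fold change of Rhox13 with its 95% interval (black) in each comparison, first group minus second, beside the medians of the differentiating spermatogonia (red), germ cell (yellow) and Sertoli cell (blue) lists. Strain by age terms are the strain difference at 7 dpp minus that at 5 dpp. Rhox13 lies further from 0 than the list medians for B6-ChrXMSM and B6-ChrXTMSM against B6 at 7 dpp, and nearer to 0 than the germ cell median for B6-ChrXMSM against B6 at 5 dpp.

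The same lists were counted in further comparisons of strains. At 5 dpp in B6-ChrXMSM against B6, 6 of the 7 tested germ cell genes were lower with a median of -1.50, beside -0.95 for *Rhox13*. Of the differentiating list 4 of 8 were lower with a median of -0.75, and 1.68% of all probe sets were called. In MSM against B6 at this age, 5 of 8 germ cell genes were higher with a median of 1.03, beside -0.13 for *Rhox13*. Of the differentiating list 3 of 8 were higher (median 0.28), while 28.3% of all probe sets were called. No gene of either list was called in B6-ChrXTMSM at 5 dpp. In XS39-tel, beside -0.65 for *Rhox13*, 2 of 8 of the differentiating list were lower (median -0.61) and 0 of 7 germ cell genes were called by limma (median -0.75). In F1, beside -0.59, none of the 8 was called (median -0.33) and 2 of 7 germ cell genes were lower (median -0.65). Of all probe sets 0.306% were called in B6-ChrXTMSM, 0.646% in XS39-tel and 0.538% in F1. In MSM against B6 at 7 dpp, 3 of 9 germ cell genes (median 0.35) and 1 of 9 of the differentiating list (median 0.03) were higher. *Rhox13* was at -0.30 there, and 17.3% of probe sets were called. F1 against B6-ChrXTMSM at 7 dpp had no call in either list, with medians of 0.98 (germ cells) and 0.63 (differentiating), beside 1.10 for *Rhox13* and 0.317% called. Against MSM, B6-ChrXMSM males had lower germ cell genes at both ages, with 8 of 8 at 5 dpp (median -2.21, beside -0.82 for *Rhox13*) and 9 of 9 at 7 dpp (median -1.48, beside -2.12). Of the differentiating list, 6 of 8 were lower and 1 higher at 5 dpp (median -1.34), and 7 of 9 were lower and 1 higher at 7 dpp (median -1.43). The median over all probe sets in these 2 comparisons was -0.09 and -0.12, and 31.2% and 23.7% of probe sets were called. Of 13 genes of undifferentiated spermatogonia, 3 of the 8 tested were lower at 7 dpp in B6-ChrXMSM and in B6-ChrXTMSM against B6, with medians of -0.07 and 0.02. There 6.08% and 5.72% of all probe sets were called. The part of these cell types in the *Rhox13* result was not tested.

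Sertoli cell genes had positive list medians, smaller in size than those of the differentiating and germ cell lists. Of 20 genes, 19 were tested at 7 dpp. In B6-ChrXMSM 2 were higher and 2 lower (median 0.32), and in B6-ChrXTMSM 2 were higher and 1 lower (median 0.23). Over all probe sets 6.08% and 5.72% were called in these comparisons, with medians of 0.01 and 0.02. The mean of the 19 genes lay between 7.27 and 7.36 in B6, 7.51 and 7.59 in B6-ChrXMSM, and 7.52 and 7.62 in B6-ChrXTMSM males at this age. The list of 19 genes of the androgen and GATA pathways holds *Rhox5*. At 7 dpp 12 were tested in B6-ChrXMSM (median 0.33) and 11 in B6-ChrXTMSM (median 0.12), and none was called higher. *Gata1*, a transcription factor of Sertoli cells, and *Cldn11*, a junction protein, were lower in B6-ChrXMSM, by differences of -0.87 and -0.80, and *Cldn11* in B6-ChrXTMSM, at -0.61. Both genes are also in the Sertoli cell list. Among 12 regulators of DNA methylation, *Dnmt3b*, a DNA methyltransferase, and *Hells*, a chromatin remodeller, were lower in both strains. *Dnmt3b* was at -1.12 and *Hells* at -0.85 in B6-ChrXMSM, and at -1.03 and -0.80 in B6-ChrXTMSM. Among the 9 tested there, the medians were -0.08 and -0.11. *Dnmt3b* is also in the differentiating list.

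*Rhox13* was followed most closely over the 11 group means by *Smarca5*, a chromatin remodeller (Pearson r = 0.989), *Nup133*, a nuclear pore protein (r = 0.986), *Tfrc*, the transferrin receptor (r = 0.983), *Wdr5*, a subunit of histone methyltransferases (r = 0.982), and *Ugt8a*, a galactosyltransferase (r = 0.980). Of 18662 probe sets compared, 3.23% had r above 0.9 with *Rhox13*. *Rhox2a* had r = 0.571 with it, over groups in which its polymorphic probe set met both alleles. The 5 genes nearest to *Rhox5* were *Hnrnpu* (r = 0.886), *Smg1* (r = 0.884), *Trmt13* (r = 0.865), *Rad23b* (r = 0.851) and *Trip12* (r = 0.850), and no probe set had r above 0.9 with it. These values describe 11 means from the same arrays and come with no test.

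Among the 8 F1 males at 7 dpp, *Rhox13* was higher where genes of differentiating spermatogonia were higher. The 2 males lowest in *Rhox13*, at 4.08 and 4.13, also had the lowest list means, -0.39 and -0.28 after centring each gene. The 2 highest, at 5.54 and 5.73, had the highest list means, 0.33 and 0.36. Pearson r was 0.971 (exact permutation p = 2.48e-05, adjusted 0.000198 over 8 relations, two-sided), and Spearman rho was 1.00 (exact permutation p = 4.96e-05, adjusted 0.000397). Both are the smallest p that the permutations of 8 males can give. Without the 2 males farthest from the median of the list mean, r was 0.967. How many other probe sets followed this list over these males was not counted, so the relation is not shown to be particular to *Rhox13*.

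With the Sertoli cell list *Rhox13* ran the other way, with r = -0.853 (exact permutation p = 0.0107, adjusted 0.0286) and rho = -0.929 (exact permutation p = 0.00223, adjusted 0.00595). Without the 2 farthest males r was -0.784, and without F1 replicate 2, 3, 4 or 6 the adjusted p lay between 0.0556 and 0.0624. The 2 list means themselves ran in opposite directions, so this relation is not separate from that with the differentiating list. The 2 males lowest in the differentiating list had the highest Sertoli list means, 0.20 and 0.15. The 2 males highest in it had the lowest, -0.10 and -0.12. *Rhox5* in the same males had r = 0.792 with the differentiating list (exact permutation p = 0.00104, adjusted 0.00417) and rho = 0.929 (exact permutation p = 0.00223, adjusted 0.00595). Without the 2 farthest males r was 0.894, and without F1 replicate 3 the adjusted p was 0.0608. Its signal was below the filter in 7 of these males, and 1 male, replicate 5, stood out at 3.86. The relations of *Rhox5* with both lists are therefore given as descriptions. With the Sertoli cell list *Rhox5* had r = -0.675 (exact permutation p = 0.0518, adjusted 0.104) and rho = -0.833 (exact permutation p = 0.0154, adjusted 0.0308), and without F1 replicate 5 the adjusted p of r was 0.0337.

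The other 4 of the 8 relations were those of *Rhox6* and *Rhox9*, whose signals were below the filter in all males, so nothing is read from them. The list means and the Rhox signals come from the same arrays, so they share any difference in cell makeup between the testes, whose part in these relations was not tested.

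**Figure D4:**
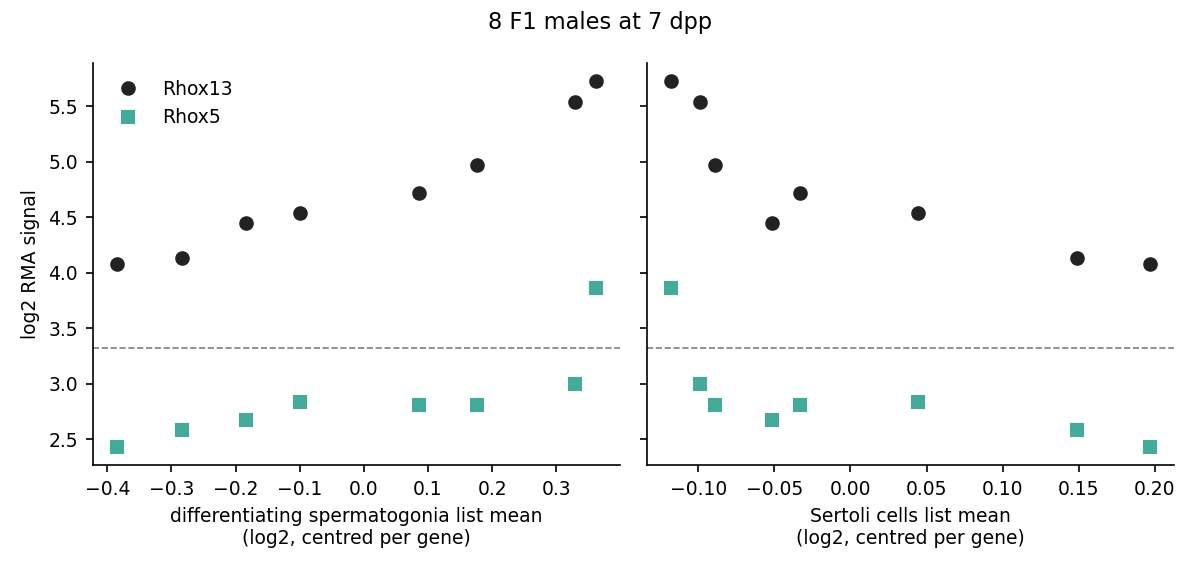
Log2 RMA signal of Rhox13 (circles) and Rhox5 (squares) in the 8 F1 males at 7 dpp against the mean of the differentiating spermatogonia list (left) and the Sertoli cell list (right), each gene centred over the 8 males, with the expression filter as a dashed line at 3.32. Rhox13 rises from 4.08 to 5.73 over the differentiating list, and Rhox5 lies above the filter in 1 male.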

How the data were processed

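An Affymetrix mouse array was used for the testis RNA of each male. The deposited log2 signals were made by the authors with RMA in GeneSpring GX (version not stated), and no value was normalized again. The members and lists were chosen with earlier results of these data known. The annotation gave 1 gene for 34958 of 45101 probe sets, several genes for 932 and no gene for 9211. In all, 34873 on autosomes or the X chromosome were used, 2 of them Rhox probe sets named only in the study's list of polymorphic probe sets. Probe sets of that list (260 on X and 728 on chromosome 1) were left out where the compared groups differ in allele origin. Other chromosomes were not screened, which limits comparisons with MSM. Groups came from the labels, which call the males biological replicates.

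Each pair was fitted in R 4.3.3 with limma 3.58.1 (lmFit, then eBayes), where a group mean passed log2 of 10. Adjusted p in the report is by Benjamini-Hochberg over all probe sets kept, and values of list genes are from the same fits. Intervals are 95%. On simulated data for B6-ChrXTMSM against B6 at 7 dpp, 52.2% of 1.5-fold, 94.0% of 2-fold and 98.5% of 4-fold changes were recovered (67, 67 and 66 simulated probe sets beside 16724 unchanged ones). Relations over F1 males used exact permutations in Python 3.11.15. Named genes were the Rhox probe sets, list genes that a result turns on, and the 5 genes nearest to a member over the group means. A list gene is its probe set of highest mean over the 38 arrays. The number of arrays limits the precision. Alternatives were 1 fit over all groups, other filters, array medians subtracted, quantile normalization, polymorphic probe sets kept or left out, an intensity trend, a replicate block, and each array left out.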

Additional observations from a re-analysis of the deposited data

Results flagged for a closer look

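*Rhox5* among the 8 F1 males at 7 dpp had 1 male, replicate 5, far above the others, with a gap to the next male that was 0.605 of the whole range. About 1 in 20 such groups is expected to pass by chance, and 6 Rhox probe sets were examined. The same male had the highest *Rhox13* and *Rhox2a* signals, 5.73 and 4.61.

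For *Rhox13* the difference from B6 changed between the ages by -1.47 in B6-ChrXMSM and by -2.08 in B6-ChrXTMSM, both by the strain by age term of limma. For *Rhox2a* it changed by -0.93 in B6-ChrXTMSM.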

How the results depend on the processing

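Fold changes of *Rhox13*, *Rhox5* and *Rhox2a* kept their direction wherever they passed the thresholds of a call. Replicate numbers did not pair the males: the correlations of same-numbered deviations ran from -0.321 to 0.339, with 25.2% over 0.1. With a replicate block, *Rhox13* lost its call in XS39-tel (-0.65, adjusted p = 0.116) and in F1 against B6 at 7 dpp (-1.28, adjusted p = 0.218). *Rhox2a* lost it in F1 at 7 dpp (-0.68, adjusted p = 0.115). In 1 fit over all groups *Rhox13* lost it in XS39-tel (-0.65, adjusted p = 0.138), for the ages in B6-ChrXMSM (0.70, adjusted p = 0.131) and for strain by age in B6-ChrXMSM (-1.47, adjusted p = 0.119). *Rhox13* in F1 against B6-ChrXTMSM at 7 dpp passed in that fit (1.10, adjusted p = 0.0033). With no filter the ages in B6-ChrXMSM for *Rhox13* (0.70, adjusted p = 0.0940) were not called. For *Rhox5* in B6-ChrXTMSM against B6-ChrXMSM (-1.02) no call is read, since the filter kept it only through its high group. Its adjusted p from limma was 0.111 with a replicate block, 0.0687 in 1 fit over all groups and 0.134 with no filter. The cause was not tested.

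Leaving out 1 male at a time changed whether the thresholds were passed for 14 results. Of these, 2 are the relations of *Rhox5* over F1 males given in the report. The values of the others ran from -0.68 to -0.60 for *Rhox13* in XS39-tel against B6 at 5 dpp, from -0.71 to -0.49 for *Rhox13* in F1 against B6 at 5 dpp, from -1.53 to -1.30 for *Rhox13* in F1 against B6 at 7 dpp, from -0.85 to -0.71 for *Rhox2a* in F1 against B6 at 7 dpp, from -0.76 to -0.51 for *Rhox2a* in B6-ChrXMSM against MSM at 7 dpp, from 0.31 to 0.63 for *Rhox5* in B6-ChrXMSM against MSM at 7 dpp. They further ran from 0.96 to 1.24 for *Rhox13* in F1 against B6-ChrXTMSM at 7 dpp, from -1.23 to -0.90 for *Rhox5* in B6-ChrXTMSM against B6-ChrXMSM at 7 dpp, from 0.52 to 0.79 for *Rhox13* between the ages in B6-ChrXMSM, from 0.36 to 0.70 for *Rhox5* between the ages in B6-ChrXMSM, from 1.23 to 1.48 for *Rhox13* between the ages in F1, and from -0.924 to -0.817 for the r of *Rhox13* with the Sertoli cell list. The males concerned are named beside the results.

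Counts of probe sets called moved by over 1.5 times in 56 of 188 cases where 1 male was left out and in 28 of 216 under other settings. A replicate block gave 22 for B6-ChrXTMSM (in place of 52), 0 for XS39-tel by limma (in place of 111, with 2797 at an unadjusted p under 0.05) and 5 for F1 (in place of 90) against B6 at 5 dpp, 42 for F1 against B6 at 7 dpp (in place of 289), 2 and 130 for F1 against B6-ChrXTMSM at 5 and 7 dpp (in place of 8 and 53), and 39 and 35 for B6-ChrXTMSM against B6-ChrXMSM (in place of 124 and 53). In 1 fit over all groups these were 350 for XS39-tel, 510 for F1 against B6 at 7 dpp, 31 and 315 for F1 against B6-ChrXTMSM, 32 for B6-ChrXTMSM against B6-ChrXMSM at 7 dpp, 82 for the ages in B6-ChrXTMSM (in place of 143), and 3 and 383 for strain by age in B6-ChrXMSM and B6-ChrXTMSM (in place of 245 and 908). A filter at 20 gave 34 and 183 for B6-ChrXTMSM at 5 dpp and F1 at 7 dpp against B6, 33 for F1 against B6-ChrXTMSM at 7 dpp and 1 for strain by age in F1 (in place of 2). No filter gave 67 for XS39-tel and 62 for B6-ChrXTMSM against B6-ChrXMSM at 5 dpp. An intensity trend gave 85, 14 and 221 for B6-ChrXTMSM against B6, F1 against B6-ChrXTMSM and B6-ChrXTMSM against B6-ChrXMSM at 5 dpp, and 1 for strain by age in F1. With polymorphic probe sets kept, F1 against B6-ChrXTMSM gave 19 and 97.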

Other observations

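Markers of the other testis cells were counted in the same comparisons with B6 at 7 dpp. Of 6 Leydig cell genes 4 were tested, and 2 were higher in B6-ChrXTMSM (median 0.41), none was called in B6-ChrXMSM (median -0.19) and none in F1 (median 0.43). Among 5 peritubular myoid cell genes, 1 was lower in B6-ChrXMSM (median -0.25) and none was called in B6-ChrXTMSM (median -0.15) or F1 (4 tested, median -0.23). Of 5 macrophage genes, 4 were tested in B6-ChrXMSM and in B6-ChrXTMSM and 3 in F1. Of 4 endothelium genes, 3 were tested in each comparison. None of the tested genes of these 2 lists was called, with medians from -0.10 to 0.18. Over all probe sets 6.08% were called in B6-ChrXMSM, 5.72% in B6-ChrXTMSM and 1.73% in F1.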
